A study of Homo sapiens with 2 samples.

Results

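The genes described here are feedback brakes and early response genes of growth factor signalling, together with atypical dual-specificity phosphatases. They comprise the dual-specificity phosphatases (DUSP), the Sprouty (SPRY) and Spred (SPRED) inhibitors, and the early genes ETV4, ETV5, EGR1, EGR2, EGR3, PHLDA1, IER2 and IER3. They were chosen by gene symbol alone, and 39 of the 26506 genes in the deposited tables matched, of which 24 are DUSP genes, 4 SPRY genes and 3 SPRED genes. The cells were human corneal epithelial cells, an established line (ATCC CRL-11515), grown for 72 hours before RNA extraction. One culture medium was the special medium of DMEM/F12 with fetal bovine serum at 10%, calcium chloride at 1 mM, EGF at 10 ng/mL and an antibiotic/antimycotic mix, and the other was keratinocyte serum-free medium (KSFM), whose EGF and calcium content the labels do not give. RNA of 3 independent cultures was pooled into 1 library per medium, so no difference below has a replicate check or a p-value.

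When a growth factor binds its receptor, the signal passes through RAS and a chain of kinases to ERK, which enters the nucleus and switches on early response genes. Several of those genes encode brakes on the same chain. MAP kinase phosphatases, a branch of the DUSP family, remove phosphate from both the threonine and the tyrosine that activate ERK, JNK or p38. Sprouty and Spred proteins act further up, between the receptor and RAF. In the corneal epithelium EGF receptor signalling drives proliferation and wound closure, and serum and EGF are classical inducers of early response genes.

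The special medium library held 16900472 counts and the KSFM library 21604652. Of the 8 corneal and basal epithelial markers, CDH1 had 405 CPM (counts scaled to library size) in the special medium and 507 CPM in KSFM, EPCAM 349.6 CPM in the special medium and 266 CPM in KSFM, and KRT5 54.4 CPM in the special medium and 82.4 CPM in KSFM. The corneal lineage factor PAX6 had 4.31 CPM in the special medium and 3.20 CPM in KSFM. The basal markers KRT14, with 10 counts in the special medium and 4 in KSFM, and TP63, with 13 in the special medium and 5 in KSFM, stayed under 1 CPM. The corneal keratin KRT12 had 0 counts in both libraries and KRT3 had 1 count in the special medium and 0 in KSFM, so these keratins of differentiated cornea were absent or nearly so. The 5 fibroblast markers summed to 9.22 CPM in the special medium and 7.92 CPM in KSFM, with LUM and KERA at 0, the 3 immune markers to 59.8 CPM in the special medium and 57.0 CPM in KSFM, nearly all of it CD68 and with CD3E at 0, and the 2 melanocyte markers to 6.38 CPM in the special medium and 4.54 CPM in KSFM. The 3 endothelial markers summed to 14.95 CPM in the special medium and 0.510 CPM in KSFM. Of them CDH5 had 236 counts in the special medium and 3 in KSFM. PECAM1 had 15 counts in the special medium and 2 in KSFM, and VWF had 2 in the special medium and 6 in KSFM. The part of these transcripts in the results below was not tested. In bulk RNA, fewer cells using a gene and less RNA per cell cannot be told apart.

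Promoter windows reached from 250 bases before to 50 bases after the start site and came from RefSeq tables (GRCh38.p14). The group's windows on some chromosomes are not reported here, though all windows there enter the shares below. The group's other windows numbered 43 and covered 29 of the 39 genes. They were searched on both strands for the cyclic AMP response element TGACGTCA, the AP-1 site TGANTCA, the ETS core CCGGAA, and the CArG box that serum response factor binds. A match is a description of the letters and not evidence of binding. The windows of EGR1 and DUSP1 are shown because these are the most abundant zinc finger factor and the most abundant phosphatase of the group. Those of PHLDA1 and SPRY1 are shown because these genes rose in the special medium and the window holds a match. A link between the match and the rise was not tested. Capitals mark CArG boxes in EGR1, the cyclic AMP response element in DUSP1 and the ETS core in PHLDA1 and SPRY1, where PHLDA1 carries it on the opposite strand. The windows are chr5:138465229-138465528 on the plus strand for EGR1, chr5:172771146-172771445 on the minus strand for DUSP1, chr12:76031727-76032026 on the minus strand for PHLDA1, and chr4:123398136-123398435 on the plus strand for SPRY1, the second of its 2 windows.
EGR1: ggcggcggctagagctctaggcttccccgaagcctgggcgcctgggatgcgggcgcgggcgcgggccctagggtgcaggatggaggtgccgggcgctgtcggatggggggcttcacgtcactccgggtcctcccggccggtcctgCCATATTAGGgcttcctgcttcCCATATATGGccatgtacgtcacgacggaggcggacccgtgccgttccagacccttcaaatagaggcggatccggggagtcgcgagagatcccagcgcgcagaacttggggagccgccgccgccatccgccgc
DUSP1: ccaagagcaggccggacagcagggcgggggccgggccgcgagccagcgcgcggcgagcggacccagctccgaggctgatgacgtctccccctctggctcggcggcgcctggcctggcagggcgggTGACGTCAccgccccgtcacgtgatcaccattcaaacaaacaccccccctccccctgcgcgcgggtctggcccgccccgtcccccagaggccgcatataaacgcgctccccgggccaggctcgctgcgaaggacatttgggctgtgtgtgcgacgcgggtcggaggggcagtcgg
PHLDA1: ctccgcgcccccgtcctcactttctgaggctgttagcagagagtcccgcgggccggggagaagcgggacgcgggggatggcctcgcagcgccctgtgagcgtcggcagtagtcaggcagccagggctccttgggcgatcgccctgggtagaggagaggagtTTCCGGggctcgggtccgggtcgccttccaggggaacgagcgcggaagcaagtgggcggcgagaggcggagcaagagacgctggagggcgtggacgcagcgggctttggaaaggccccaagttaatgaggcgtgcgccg
SPRY1: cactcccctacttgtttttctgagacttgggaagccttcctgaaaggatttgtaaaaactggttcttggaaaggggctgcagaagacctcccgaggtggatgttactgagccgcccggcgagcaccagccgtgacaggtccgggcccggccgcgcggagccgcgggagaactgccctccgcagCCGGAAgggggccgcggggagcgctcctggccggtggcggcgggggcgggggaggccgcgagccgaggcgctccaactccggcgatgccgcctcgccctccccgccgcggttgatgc
The CArG box was present in 1.29% of all 35116 promoter windows of that length, and EGR1 had 2 copies, starting 105 and 83 bases before its start site. EGR2 had 1 copy in 1 of its windows. The cyclic AMP response element was present in 1.85% of all windows and in 2 of the group's 43 windows, those of DUSP1 and DUSP8. The ETS core was present in 17.2% of all windows and in 5 of the group's 43 windows. These belong to 5 of the 29 genes, namely PHLDA1, SPRY1, SPRY2, IER2 and DUSP15. The AP-1 site was present in 7.71% of all windows and in 2 of the group's 43 windows, 1 of SPRED2 and 1 of SPRED3. None of the 4 motifs matched in the windows of DUSP10, which rose, or DUSP2, which fell.

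Few genes of the group differed by 2-fold between the media. Of the 39 genes, 32 reached 1 CPM in either library, 4 had counts but stayed under that level and 3 (DUSP21, DUSP26 and DUSP27) had 0 counts in both. A gene was called when the ratio of special medium over KSFM was at least 2-fold and its exact 95% interval, which covers counting error only, excluded equality. By that rule SPRY1, DUSP10 and PHLDA1 were higher in the special medium, 9.38% of the 32, where 9.86% of all 13632 genes at that level were called higher. DUSP2 was lower, 3.12% of the 32, where 6.77% of all genes were called lower. Both shares are near those of all genes. The median log2 ratio of the 32 genes was 0.08, against 0.00 over all genes, and their middle 50% ran from −0.45 to 0.40, against −0.41 to 0.43.

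The deposited TPM values, which adjust for transcript length as well as depth, show the range over which these genes were used. Over all genes at 1 CPM or more, the median log2 ratio of TPM was 0.15, with 1 added to each value. TPM pairs and sums below are not corrected for that shift toward the special medium. EGR1 was the most abundant of the group, at 621 TPM in the special medium and 521 TPM in KSFM. IER3 followed at 351 TPM in the special medium and 249.6 TPM in KSFM and DUSP1 at 214 TPM in the special medium and 229.7 TPM in KSFM, so the same 3 genes led the order in both media. At the low end, DUSP19 had 0.33 TPM in the special medium and 0.12 TPM in KSFM and SPRY3 0.14 TPM in the special medium and 0.12 TPM in KSFM.

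**Figure D1:**
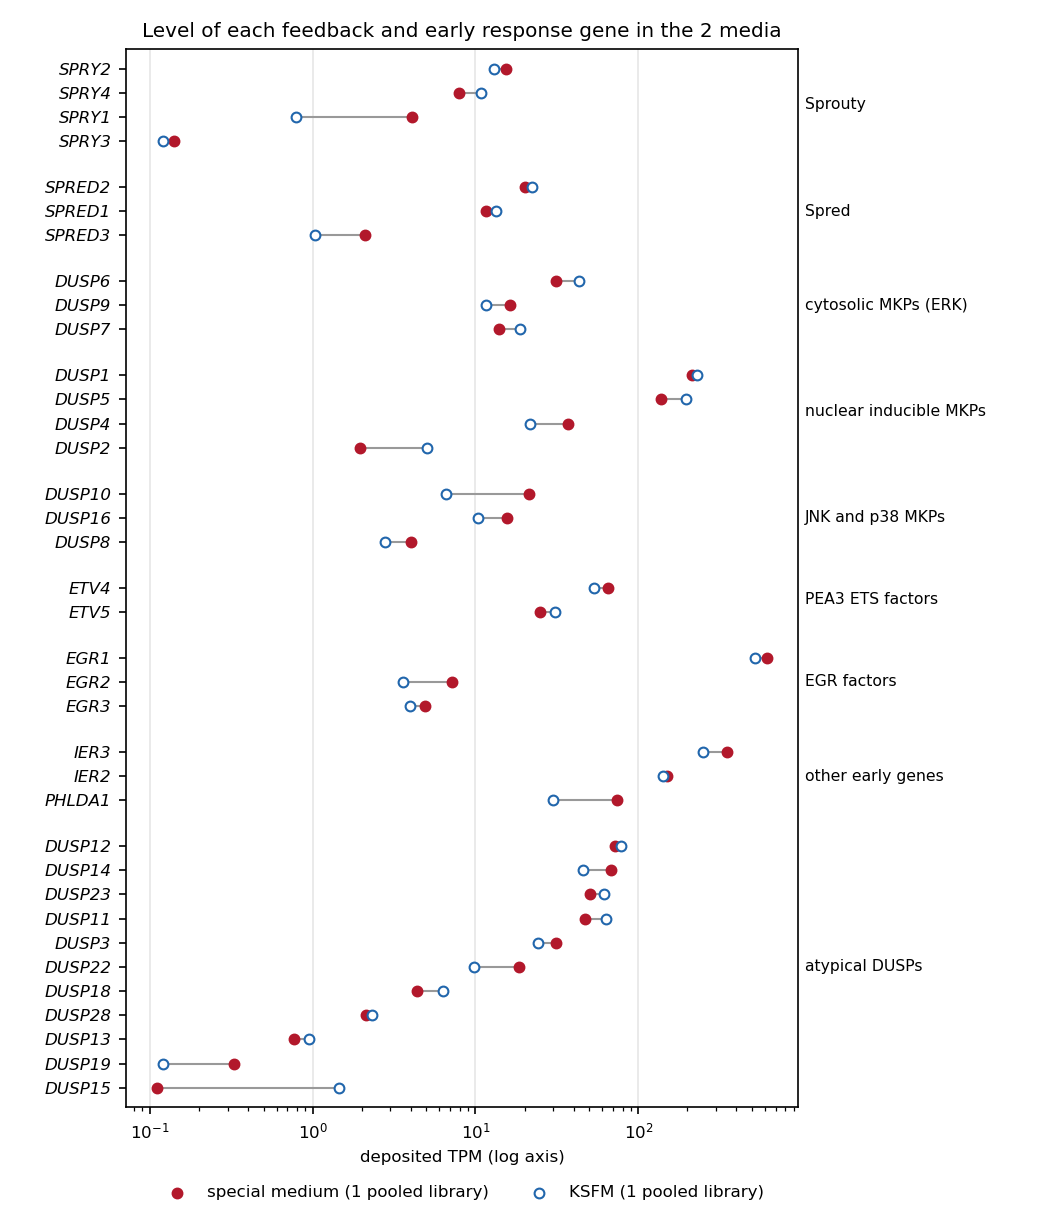
Deposited TPM (log axis) of the 36 genes with counts, grouped by role, with special medium as filled red points and KSFM as open blue points, 1 pooled library each. The longest connecting lines belong to SPRY1, DUSP10, DUSP19 and PHLDA1, where the special medium lies to the right, and to DUSP2 and DUSP15, where it lies to the left.

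Sprouty and Spred proteins act nearest the receptor. SPRY1, an inhibitor of RAS activation by receptor tyrosine kinases, had 77 counts in the special medium and 21 in KSFM, or 4.55 CPM (3.59 to 5.69) in the special medium and 0.973 CPM (0.602 to 1.49) in KSFM. It was 4.68-fold higher in the special medium (2.86 to 7.98). SPRY1 passed the filter of 1 CPM through the special medium alone, so its place among the 32 genes rests on the library in which it is high. On log2(TPM + 1), centred on all genes, its ratio was 1.36 in place of 2.23, since a pseudocount of 1 shrinks a gene at 4.08 TPM in the special medium and 0.79 TPM in KSFM. SPRY2, the most abundant Sprouty gene in both media, had 15.4 TPM in the special medium and 12.98 TPM in KSFM. Its log2 ratio of 0.07 (−0.17 to 0.32) spanned equality. SPRY4, a Sprouty gene induced by FGF and EGF signals, had 317 counts in the special medium and 612 in KSFM. Its log2 ratio was −0.60 (−0.80 to −0.40), short of 2-fold. SPRY3 had 10 counts in the special medium and 13 in KSFM, with an interval of its log2 ratio from −1.38 to 1.28.

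Within the Sprouty family SPRY1 was the gene called, and the intervals of SPRY1 and SPRY4 lay on opposite sides of equality. The family's summed level was 27.5 TPM in the special medium and 24.6 TPM in KSFM, uncorrected for the TPM shift of all genes. SPRY1 made up 14.8% of that sum in the special medium and 3.21% in KSFM, and SPRY4 28.7% in the special medium and 43.6% in KSFM. Among the Spred genes, which hold back RAF activation and recruit neurofibromin to RAS, SPRED2 had 20.0 TPM in the special medium and 22.4 TPM in KSFM and SPRED1 11.6 TPM in the special medium and 13.4 TPM in KSFM. Their log2 ratios were −0.35 (−0.48 to −0.21) and −0.36 (−0.50 to −0.22). SPRED3, the least abundant, had 86 counts in the special medium and 60 in KSFM, with a log2 ratio of 0.87 (0.38 to 1.37). None of the 3 was called. On GRCh38, in GENCODE release 29, SPRY1 (ENSG00000164056) spans chromosome 4 from 123396795 to 123403760.

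**Figure D2:**
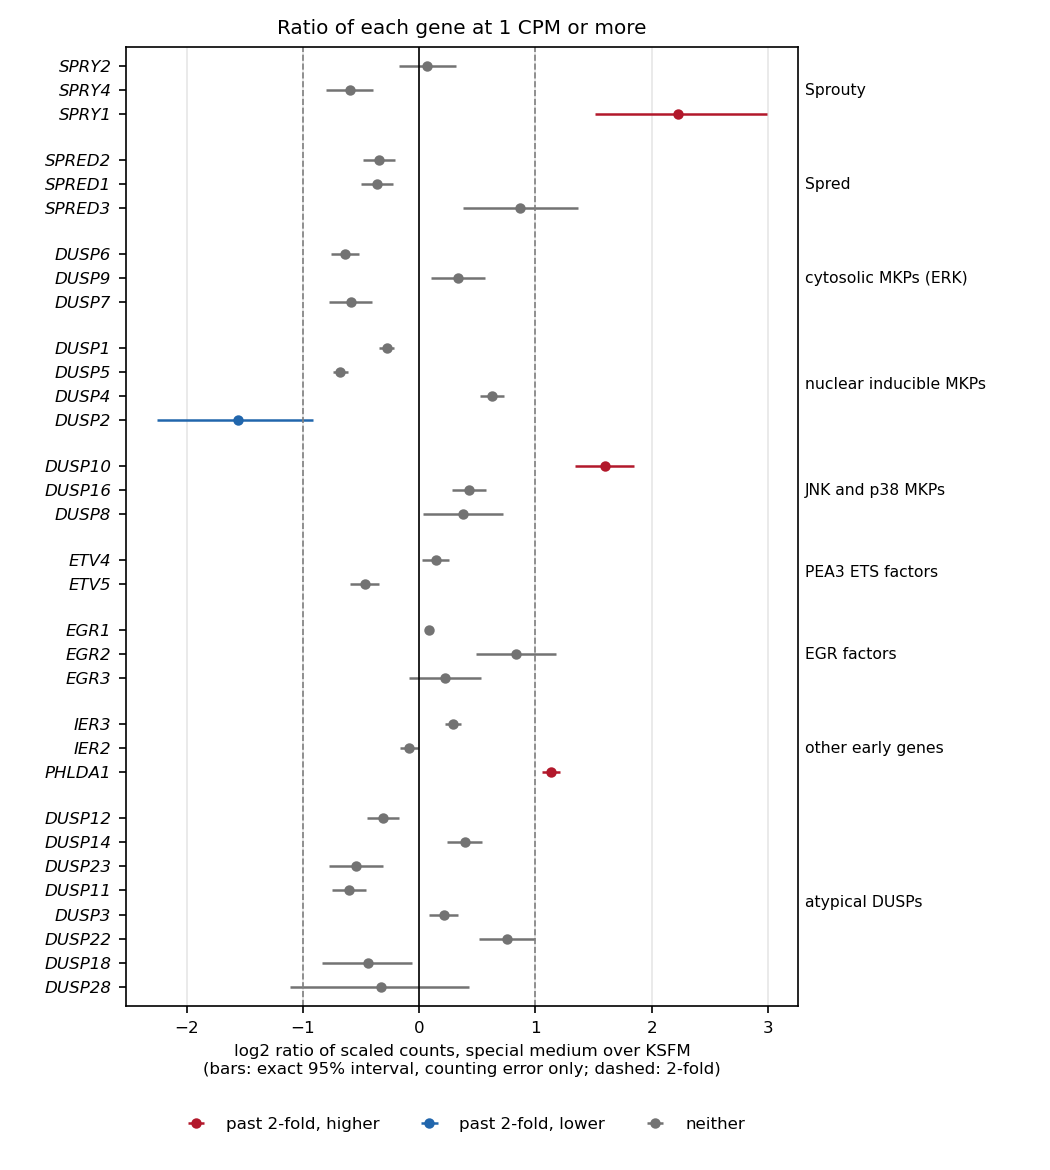
Log2 ratio of scaled counts, special medium over KSFM, for the 32 genes at 1 CPM or more, with exact 95% intervals that cover counting error only; dashed lines mark 2-fold. SPRY1, DUSP10 and PHLDA1 lie past the upper line, DUSP2 lies past the lower one, and the other 28 lie between them.

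The cytosolic phosphatases DUSP6, DUSP7 and DUSP9 act mainly on ERK. DUSP6, a direct transcriptional target of ERK signalling and its best known cytosolic phosphatase, had 837 counts in the special medium and 1662 in KSFM, or 49.5 CPM in the special medium and 77.0 CPM in KSFM. DUSP7, its close relative, had 361 counts (21.3 CPM) in the special medium and 693 (32.1 CPM) in KSFM. Their log2 ratios were −0.64 (−0.76 to −0.52) and −0.59 (−0.78 to −0.40), and neither reached 2-fold. DUSP9 had 306 counts (18.1 CPM) in the special medium and 310 (14.4 CPM) in KSFM, with a log2 ratio of 0.33 (0.10 to 0.56). DUSP6 shares 1875 exonic bases with an antisense gene in GENCODE. The libraries were stranded, but the strand setting of the counting is not given in the sources used here, so reads of the antisense partner could be part of its count.

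The inducible nuclear phosphatases were mixed. DUSP1, which acts on p38, JNK and ERK and is induced by stress and serum, had 3364 counts (199 CPM) in the special medium and 5201 (241 CPM) in KSFM, a log2 ratio of −0.28 (−0.34 to −0.21). DUSP5, which is selective for ERK, had 2744 counts (162 CPM) in the special medium and 5593 (259 CPM) in KSFM, a log2 ratio of −0.68 (−0.74 to −0.61). DUSP4, a target of ERK signalling that acts on ERK and JNK, had a ratio above equality, at 99.6 CPM in the special medium and 64.7 CPM in KSFM, a log2 ratio of 0.62 (0.52 to 0.73). None of these 3 reached 2-fold. DUSP2, a phosphatase best known from activated immune cells, had 25 counts in the special medium and 94 in KSFM, or 1.48 CPM (0.956 to 2.18) in the special medium and 4.36 CPM (3.52 to 5.33) in KSFM. It was 2.95-fold lower in the special medium (1.88 to 4.78) and was the only gene of the 32 called lower. It stood at 1.94 TPM in the special medium and 5.04 TPM in KSFM, so it contributed 0.496% of the subgroup's summed TPM in the special medium and 1.11% in KSFM. On GRCh38 DUSP2 (ENSG00000158050) spans chromosome 2 from 96143166 to 96145440.

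Of the 3 phosphatases that prefer JNK and p38, DUSP10 was called higher. DUSP10, also called MKP5, had 436 counts in the special medium and 184 in KSFM, or 25.8 CPM (23.4 to 28.3) in the special medium and 8.53 CPM (7.34 to 9.85) in KSFM. It was 3.02-fold higher in the special medium (2.54 to 3.61). DUSP16 had 47.1 CPM in the special medium and 34.99 CPM in KSFM, a log2 ratio of 0.43 (0.28 to 0.58), and DUSP8 8.57 CPM in the special medium and 6.58 CPM in KSFM, a log2 ratio of 0.38 (0.04 to 0.73). Neither of those was called. The intervals of all 3 lay above equality, as did those of 37.2% of all genes. The summed level of the 3 genes was 40.8 TPM in the special medium and 19.7 TPM in KSFM, and DUSP10 made up 52.1% of it in the special medium and 33.3% in KSFM. The summed level of the inducible nuclear phosphatases was 391 TPM in the special medium and 452 TPM in KSFM, and that of the cytosolic ones 61.7 TPM in the special medium and 73.6 TPM in KSFM. None of these sums is corrected for the TPM shift of all genes. On GRCh38 DUSP10 (ENSG00000143507) spans chromosome 1 from 221701424 to 221742176.

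**Figure D3:**
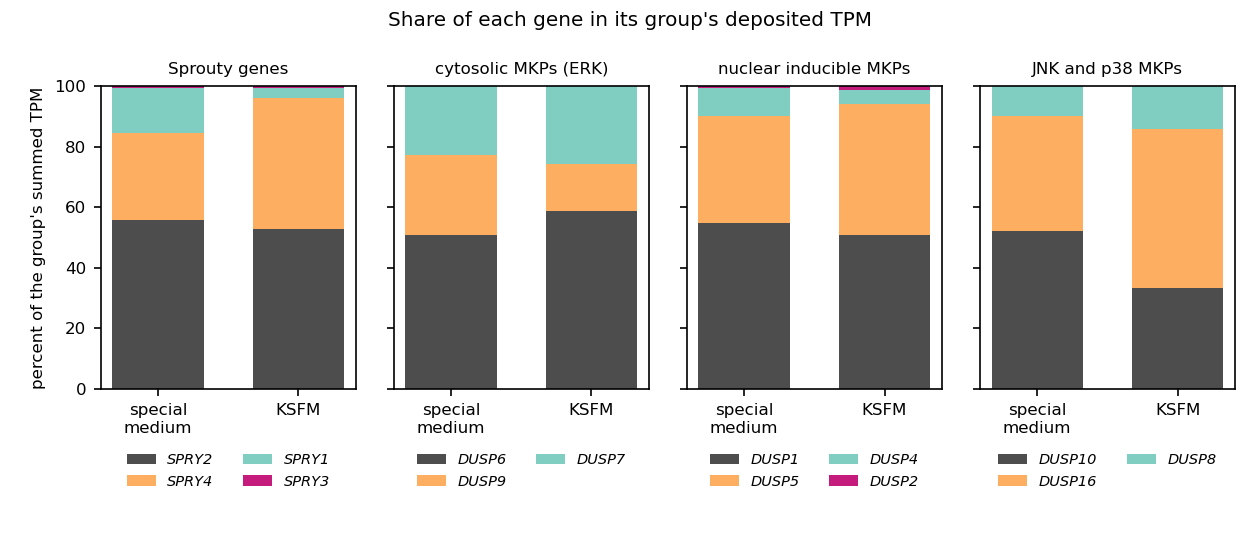
Share of each gene in the summed deposited TPM of its subgroup, with special medium as the left bar and KSFM as the right bar of each panel. SPRY1 took 14.8% of the Sprouty sum in the special medium and 3.21% in KSFM, and DUSP10 took 52.1% of the JNK and p38 phosphatase sum in the special medium and 33.3% in KSFM.

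No transcription factor of the group reached 2-fold between the media. ETV4 and ETV5 encode PEA3 family ETS factors that are widely used as readouts of FGF and ERK signalling. ETV4 had 1138 counts in the special medium and 1316 in KSFM, a log2 ratio of 0.14 (0.03 to 0.26), and ETV5 822 in the special medium and 1449 in KSFM, a log2 ratio of −0.47 (−0.59 to −0.34). ETV5 shares 164 exonic bases with DGKG on the same strand. EGR1, the zinc finger factor whose window is shown above with 2 CArG boxes, had 15474 counts (915 CPM) in the special medium and 18578 (861 CPM) in KSFM. Its log2 ratio was 0.09 (0.06 to 0.12). Once a trend of the ratios on transcript length was removed it was −0.05, on a scale where the median of all genes was −0.08. EGR2 had 10.0 CPM in the special medium and 5.65 CPM in KSFM, a log2 ratio of 0.83 (0.49 to 1.18), and EGR3 10.1 CPM in the special medium and 8.67 CPM in KSFM, a log2 ratio of 0.22 (−0.09 to 0.53). No gene among these 5 was called.

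PHLDA1, a pleckstrin homology-like protein induced by ERK signalling, had 3533 counts in the special medium and 2053 in KSFM, or 209 CPM (202 to 216) in the special medium and 95.1 CPM (91.1 to 99.3) in KSFM. It was 2.19-fold higher in the special medium (2.08 to 2.32), at 73.6 TPM there against 30.1 TPM in KSFM. PHLDA1 shares 779 and 553 exonic bases with a pair of antisense genes, so its count has the same limit as that of DUSP6. IER3, an early gene that modulates ERK signalling and survival, had 191 CPM in the special medium and 156 CPM in KSFM, a log2 ratio of 0.29 (0.22 to 0.36). IER2 had 141 CPM in the special medium and 149.8 CPM in KSFM, a log2 ratio of −0.09 (−0.16 to −0.01) that turned to 0.09 on log2(TPM + 1) without centring. Both overlap an antisense gene, by 359 bases in IER3 and 946 in IER2. On GRCh38 PHLDA1 (ENSG00000139289) spans chromosome 12 from 76025447 to 76033932.

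The other 14 DUSP genes are mostly small atypical phosphatases that are not classical ERK feedback targets, and none was called. Of the 8 at 1 CPM or more, 3 had intervals wholly above equality and 4 wholly below it, where 37.2% and 36.7% of all genes did. DUSP22, which acts in JNK signalling, had 19.4 CPM in the special medium and 11.5 CPM in KSFM, a log2 ratio of 0.75 (0.51 to 1.00). DUSP14 had 45.9 CPM in the special medium and 34.99 CPM in KSFM and DUSP3, a small phosphatase of ERK and JNK also called VHR, 61.1 CPM in the special medium and 52.8 CPM in KSFM, with log2 ratios of 0.39 and 0.21. DUSP11, an RNA triphosphatase, had 34.9 CPM in the special medium and 52.8 CPM in KSFM, a log2 ratio of −0.60 (−0.75 to −0.45). DUSP23, DUSP18 and DUSP12 had log2 ratios of −0.54, −0.44 and −0.31, and DUSP28, on 25 counts in the special medium and 40 in KSFM, one of −0.33 that spanned equality. DUSP18 shares 1530 exonic bases with SLC35E4 on the opposite strand.

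The genes under 1 CPM include 1 with a wide gap. DUSP15 had 1 count in the special medium and 21 in KSFM, or 0.973 CPM, just short of the filter, and the ratio of 16.5-fold lower has an interval of 2.65 to 681. DUSP13 had 7 counts in the special medium and 15 in KSFM and DUSP19 14 in the special medium and 7 in KSFM, with intervals that span equality. For a count of 0, as in DUSP21, DUSP26 and DUSP27, the exact 95% upper limits are 0.218 CPM in the special medium and 0.171 CPM in KSFM. The 3 counts that replace a single 0 in a ratio equal 0.177 CPM in the special medium and 0.139 CPM in KSFM.

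The intervals also give the side of equality on which each gene lay. Of the 32 genes, 15 (46.9%) had an interval wholly above equality, 14 (43.8%) wholly below it and 3 spanned it. Over all genes at 1 CPM or more those shares were 37.2% above and 36.7% below. A high count narrows an interval, so these shares also depend on how deeply each gene was counted, and so do those of the lists below. The part of depth in them was not tested. These intervals hold no variation between cultures. On the deposited TPM values the median log2 ratio of all genes was 0.15 with a pseudocount of 1. With the same filter and count interval, 9.28% of all genes were then called higher and 2.56% lower, against 9.86% and 6.77% on counts. With a pseudocount of 0.1 these were 12.1% and 4.44%. The same 3 genes of the group were called higher and DUSP2 lower on each of these scales.

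Other genes of the pathway were read from lists chosen by their roles, with earlier results of these data known. Their counts stand beside the shares of all genes at 1 CPM or more, of which 9.86% were called higher and 6.77% lower. Intervals lay above equality for 37.2% of all genes and below it for 36.7%. Single calls in short lists are not read as results about a list. All 6 EGF receptor ligands at 1 CPM or more had intervals above equality (median log2 ratio 0.81), though only EREG was called, at 285 CPM in the special medium and 100.1 CPM in KSFM, or 2.85-fold higher (2.71 to 2.997). In the EGF receptor family ERBB3 was the 1 of 3 genes called, 2.39-fold higher (2.23 to 2.55), while EGFR, the receptor of EGF itself, had 152 CPM in the special medium and 212 CPM in KSFM. Of 6 FGF receptor and ligand genes, FGFBP1, a secreted FGF carrier, was 3.57-fold higher (2.87 to 4.46) and the receptor FGFR4 was 2.42-fold lower, on 281 counts in the special medium and 869 in KSFM. In the RAS to ERK core 1 of 16 genes was called, MAPK3, which encodes ERK1, at 115 CPM in the special medium and 43.3 CPM in KSFM, or 2.66-fold higher (2.46 to 2.88).

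The JNK and p38 pathway list holds the kinases that DUSP10, DUSP16 and DUSP8 act on and the kinases that activate them. Of its 10 genes at 1 CPM or more, MAP2K6, an activator of p38, was called higher, on 27 counts in the special medium and 10 in KSFM. At 1.60 CPM in the special medium and 0.463 CPM in KSFM, MAP2K6 passed the filter through the special medium alone. The list's median log2 ratio was 0.05. Of 16 other negative regulators of receptors and RAS, SOCS3, a feedback inhibitor of cytokine receptors, was 2.42-fold higher (2.08 to 2.83) and the median was −0.05. Among these ERRFI1, a feedback inhibitor of the EGF receptor, had 380 CPM in the special medium and 475 CPM in KSFM and was not called. The other ERK and serum response targets had 6 of 28 genes called higher and 0 lower, where 9.86% of all genes were called higher and 6.77% lower, and a median log2 ratio of 0.41. This list, like the others, was chosen with earlier results of these data known, so its shares are a description only. Of the 28 intervals 22 lay above equality and 4 below it, where 37.2% of all genes lay above and 36.7% below. JUND, at a log2 ratio of −0.88, was among those below. The 6 called were KLF10 (4.86-fold), NR4A2 (4.16-fold), KLF2 (3.70-fold), PTGS2 (3.54-fold), KLF4 (2.59-fold) and JUNB (2.20-fold), all of them transcription factor genes except PTGS2, which encodes the inducible cyclooxygenase. NR4A2, at 3.66 CPM in the special medium and 0.880 CPM in KSFM, also passed the filter through the special medium alone. FOS, the classical serum response gene, had 128 CPM in the special medium and 98.98 CPM in KSFM and was not called.

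A set of 10 transcripts in use as a readout of MEK activity draws 7 of its genes from the group described here, PHLDA1, SPRY2, SPRY4, DUSP4, DUSP6, ETV4 and ETV5, and adds CCND1, EPHA2 and EPHA4. Only PHLDA1 of the 10 was called, a share near the 9.86% of all genes called higher. Of the 10 intervals, 4 lay above equality and 4 below it, where 37.2% and 36.7% of all genes did. The median log2 ratio was 0.11.

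**Figure D4:**
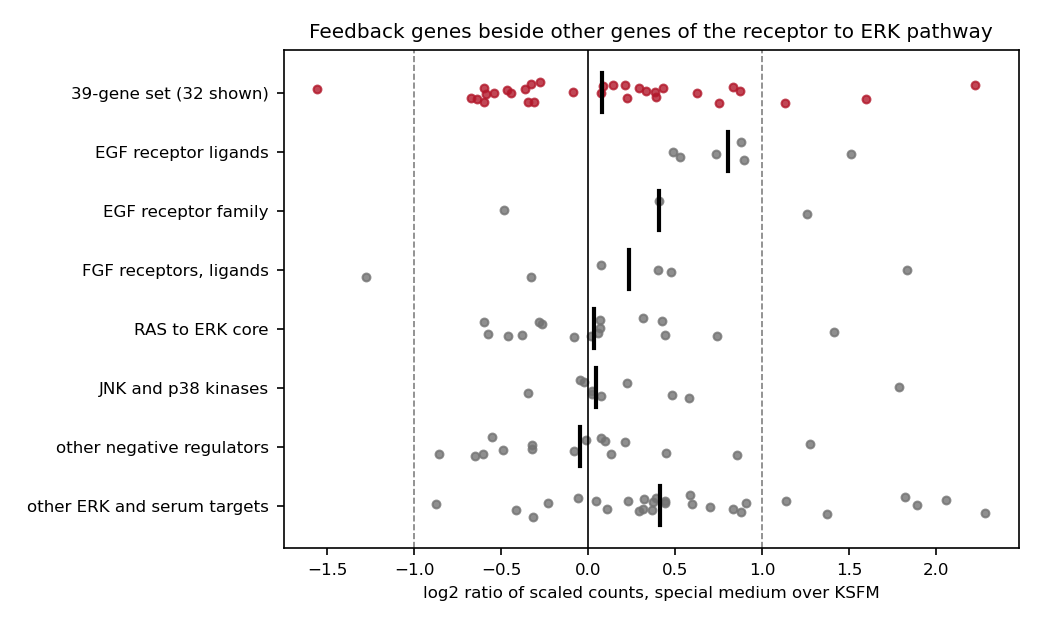
Log2 ratio of scaled counts, special medium over KSFM, of each gene at 1 CPM or more. Red points are the 32 genes of the group, atypical DUSP genes among them, and grey points are 7 lists of other pathway genes. Black bars are medians and dashed lines mark 2-fold. The group centres on 0.08, the EGF receptor ligands on 0.81 and the other ERK and serum targets on 0.41.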

How the data were processed

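Poly(A) RNA was sequenced from stranded libraries, 1 per medium, each a pool of 3 cultures. Per the submitters' processing notes the genome build was GRCh38 and the tools included RSEM, HISAT2 2.1.0, fastp 0.20.0 and FastQC 0.11.9. Their order, the gene annotation and the counting strand are not stated there. Estimated counts and TPM values per gene symbol are used as the authors deposited them. Estimated counts, fractional in 8.05% of genes in the special medium and 11.3% in KSFM, were rounded. They were scaled by edgeR 4.0.16 TMM factors (1.00 and 0.999). Ratios were given exact 95% Clopper-Pearson intervals, conditional on the sum of both counts. These cover counting error only, since each medium has 1 pooled library. Reads carry no molecular identifiers, and the intervals make no allowance for duplicate reads. A count of 0 was set to 3 counts. The ratio and call steps were tested on simulated Poisson data. Genes and lists were chosen with earlier results of these data known. Every gene of the group was named, and of each list the called genes (up to 4, largest first) or the 2 most expressed; KLF4, JUNB and the uncalled list genes were named outside that rule, after their values were seen. Some list genes, though counted, are not reported here by name. Alternatives were scaling by upper quartile, by DESeq2 1.42.0 or by total count, log2 TPM with pseudocounts of 1 and 0.1 and with centring, a filter of 10 CPM or none, a cubic trend on effective length removed, a 4-fold rule, and an interval wholly beyond 2-fold. Effective length was the estimated count per TPM in whichever library had more TPM, which ties it to a ratio's direction. Software was Python 3.11.15 with scipy 1.17.1, numpy 2.4.6, matplotlib 3.10.9 and pandas 2.3.3, beside R 4.3.3.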

Additional observations from a re-analysis of the deposited data

How the results depend on the processing

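The calls of SPRY1, DUSP10 and PHLDA1 as higher and DUSP2 as lower were the same under total count, DESeq2 and upper quartile scaling, on TPM with either pseudocount or centred, and with the length trend removed. The calls on TPM kept the interval of the counts. Close to the 2-fold line were DUSP2, at a log2 ratio of −1.04 on TPM with a pseudocount of 1, and PHLDA1, at 1.03 with the length trend removed. A filter of 10 CPM left 2 genes higher (DUSP10 and PHLDA1) and 0 lower, since SPRY1 and DUSP2 stayed under it in both media. With no filter 2 were lower, DUSP15 and DUSP2. A 4-fold rule left 1 higher, SPRY1, and 0 lower. An interval wholly beyond 2-fold left 3 higher and 0 lower. The median log2 ratio of the group was 0.24 on TPM with a pseudocount of 1 and 0.25 with 0.1, scales on which the median of all genes was 0.15 and 0.16. It was 0.09 on centred TPM, where the median of all genes was 0. With the length trend removed it was −0.03, where the median of all genes was −0.08. Of 282 ratios of single genes under these alternatives, 234 lay inside the interval of the main value and 48 outside, and no called gene changed sign. No paired analysis was possible because each medium has 1 pooled library, and for the same reason no replicate could be left out.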

Other observations

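Dual-specificity phosphatases that carry other symbols, a list added after the values above were seen, were within 2-fold between the media. Of 14 such genes at 1 CPM or more, 0 were called in either direction, where 9.86% of all genes were called higher and 6.77% lower. Their intervals lay above equality in 7 and below it in 5, where those shares of all genes were 37.2% and 36.7%. The median log2 ratio of the 14 genes was 0.20. The regenerating liver phosphatases PTP4A1 and PTP4A2 were abundant, PTP4A1 at 207 TPM in the special medium and 184 TPM in KSFM and PTP4A2 at 197 TPM in the special medium and 102 TPM in KSFM. Their log2 ratios on counts were 0.01 and 0.79, while that of PTP4A3 was −0.72. Among the Slingshot phosphatases, which activate the actin-severing protein cofilin, SSH1 had a log2 ratio of −0.08, SSH2 0.57 and SSH3 0.85.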
